A study of Homo sapiens with 6 samples.

Results

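The genes described here encode the core of the splicing machinery and its main regulators: the hnRNP proteins, the SR proteins (SRSF), the Sm and other snRNP proteins (SNRP), the U2-associated SF3A and SF3B subunits, the U2AF family, the PRPF proteins and the LSM proteins. They were chosen by symbol alone, as protein-coding genes of these 8 families, and the rule used no measured value. Earlier results of these data were known when the rule was set. The rule found 89 genes among the 60658 identifiers of the series, of which 19687 are protein-coding. There were 26 HNRNP, 12 SRSF, 12 SNRP, 3 SF3A, 6 SF3B, 4 U2AF, 13 PRPF and 13 LSM genes.

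The study asked how inhibition of the chaperone HSP70 changes gene expression in prostate cancer cells that no longer respond to enzalutamide. C4-2B MDVR cells are a human castration-resistant line made resistant to enzalutamide and kept in medium with 20 μM of the drug, and CWR22Rv1 cells are a human castration-resistant line grown without it. Each line received DMSO as vehicle, 10 μM of the HSP70 inhibitor apoptozole (APO) or 10 μM of the HSP70 inhibitor VER155008 (VER) for 48 h, and poly-adenylated RNA was sequenced from 1 library of each of the 6 conditions. The source label of the C4-2B MDVR libraries names LNCaP-C4-2B cells and a parental cell type, whereas their titles name C4-2B MDVR, which is used here. Since each condition has 1 library, no difference below has a replicate check, no p-value was computed, and "lower" or "higher" describes these libraries.

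Splicing removes introns from pre-mRNA. SR proteins bind exonic enhancers and promote the use of nearby splice sites, whereas hnRNP proteins coat nascent RNA and often repress splice sites. The U2AF dimer marks the 3′ splice site, SF3A and SF3B anchor the U2 snRNP at the branch point, the Sm and Lsm rings hold the spliceosomal snRNAs, and PRPF8 and its partners form the catalytic tri-snRNP. U2AF2, SRSF1 and HNRNPA1 are known in prostate cancer for their part in producing truncated androgen receptor splice variants.

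Levels are given as FPKM, fragment counts scaled for gene length and library size, which are comparable between genes of different length. Differences are log2(FPKM + 0.1) of an inhibitor library minus the DMSO library of the same line, which understates changes of low genes. A gene was counted as changed at 1.2-fold or more, the size the study used. Of the 89 members, 85 exceeded 0.1 FPKM in at least 1 of the 3 libraries of each line. The other 4, HNRNPCL1 to HNRNPCL4, were listed at 0 in nearly every library, the exception being 0.06 FPKM of HNRNPCL3 in C4-2B MDVR with VER. In bulk RNA, fewer cells that express a gene and less RNA per cell cannot be told apart.

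Relative depth, estimated from the lowest values, ran from 1 to 1.63 over the libraries. Mitochondrial transcripts made up 14.8% to 16.4% of FPKM in C4-2B MDVR and 25.7% in the DMSO and VER libraries of CWR22Rv1, but 10.4% in its APO library, which stands apart. All 8 markers of prostate luminal cells exceeded 1 FPKM in every library, with summed levels of 902 to 1499 FPKM, and the basal markers KRT5 and TP63 were at 0 throughout. The summed fibroblast markers ran from 6.91 to 31.6 FPKM, endothelial markers reached at most 0.294 FPKM and leukocyte markers at most 3.78 FPKM, with PTPRC at 0 in 5 of the 6 libraries. The luminal markers themselves moved, with 5 to 6 of 8 lower than with DMSO in each comparison, led by KLK2 or KLK3. The part of these shifts in the splicing factor values was not tested.

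With DMSO the members were abundant transcripts. The 85 genes had a median of 72.3 FPKM in C4-2B MDVR and 61.7 FPKM in CWR22Rv1, against 10.4 FPKM for the median protein-coding gene tested in C4-2B MDVR. The HNRNP family was the highest, with a median of 155 FPKM in C4-2B MDVR and 129.7 FPKM in CWR22Rv1. HNRNPA1, which shuttles with mRNA and represses splice sites, was the highest member at 848 and 692 FPKM. PRPF genes had medians of 29.96 and 21.6 FPKM, and U2AF genes of 5.79 and 9.06 FPKM, U2AF2 being the only abundant member of that family.

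Most splicing factor genes were lower after either inhibitor in C4-2B MDVR. With APO, 50 of 85 members (58.8%) were lower by 1.2-fold or more, against 34.5% of all protein-coding genes tested, and 6 were higher, against 36.2%. With VER, 62 members (72.9%) were lower, against 34.3%, and 2 were higher, again against 34.3%. The median member changed by −0.34 with APO and −0.58 with VER on the log2 scale, while the median protein-coding gene changed by 0.01 and 0. Summed over all members, FPKM dropped by 22.7% with APO and by 35.8% with VER.

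In CWR22Rv1 the medians of the members were also below 0 and were smaller in size. With APO, 40 members (47.1%) were lower against 37.5% of protein-coding genes, and 15 (17.6%) were higher against 35.8%. With VER, 40 members were lower against 31.7%, and 7 were higher against 28.5%. The medians were −0.18 with APO and −0.25 with VER, beside −0.00 and −0.03 for protein-coding genes. Both medians were smaller in size than the 1.2-fold step, and the share lower with APO lies near that of all genes. That split moved with the scaling: with APO in CWR22Rv1, 30 members were lower and 23 higher when all libraries were set to the same sum, and 47 and 10 when mitochondrial genes were left out of that sum. The 7 higher members with VER include U2AF1L5, which rests on 0.147 FPKM.

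The changes were broad and mostly below 2-fold. At 1.5-fold or more, 26 members (30.6%) were lower with APO in C4-2B MDVR against 21.2% of protein-coding genes, and 42 (49.4%) with VER against 19.4%. In CWR22Rv1 the counts at 1.5-fold were 13 (15.3%) with APO against 24%, and 15 (17.6%) with VER against 14.2%. At 2-fold, 16 members (18.8%) were lower with VER in C4-2B MDVR against 9.74%. The other comparisons had fewer members at 2-fold than the background: 3 (3.53%) against 10.2% with APO in C4-2B MDVR, 2 (2.35%) against 12.6% with APO in CWR22Rv1, and 1 (1.18%) against 5.16% with VER in CWR22Rv1. Falls of 2-fold were no more frequent among the members than among all genes outside C4-2B MDVR with VER.

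**Figure D1:**
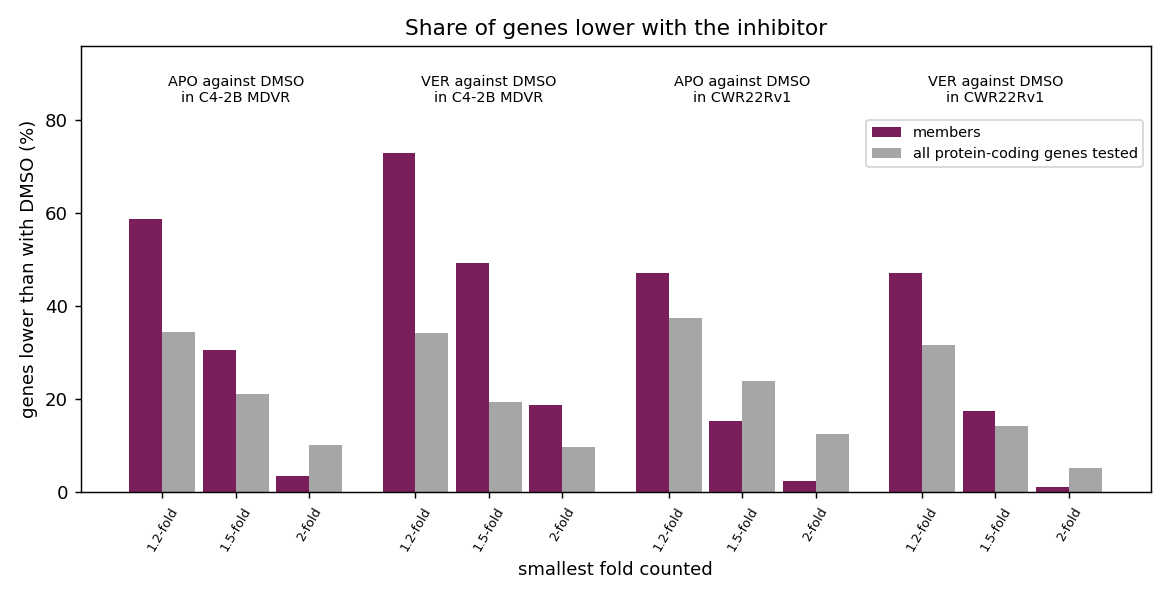
Bars give the percent of genes lower than with DMSO by at least 1.2-, 1.5- or 2-fold, for the 85 members tested and for all protein-coding genes tested, in each of the 4 comparisons. At 1.2-fold the members' bar is the taller in all 4 comparisons, and at 2-fold only for VER in C4-2B MDVR (18.8% against 9.74%).

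Since low genes scatter widely, the count was repeated for genes whose mean in the line reached 10 FPKM, 78 of them members. There, 47 (60.3%) were lower with APO in C4-2B MDVR against 31.6%, 60 (76.9%) with VER against 32.6%, 39 (50%) with APO in CWR22Rv1 against 33.6%, and 39 (50%) with VER against 28.7%. Of the 85 members, 32 (37.6%) were lower in both lines with APO, against 21.3% of protein-coding genes, and 36 (42.4%) in both lines with VER, against 19%. APO and VER share the DMSO library of a line, so their values are given side by side and were not combined.

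The families differed in how far they moved. In C4-2B MDVR the SR protein genes had medians of −0.42 with APO and −0.98 with VER, and in CWR22Rv1 of −0.37 and −0.29. The snRNP genes had −0.45 and −0.82, then −0.32 and −0.25. The HNRNP genes had −0.46 and −0.67, then −0.13 and −0.40. The LSM genes had −0.17 and −0.24 in C4-2B MDVR and 0.15 and −0.12 in CWR22Rv1. The PRPF genes had −0.24 and −0.41, then −0.31 and −0.12, and the SF3B genes −0.27 and −0.42, then −0.18 and −0.23. The smallest families were SF3A, with −0.74, −0.50, −0.29 and −0.22 over 3 genes, and U2AF, with −0.19, −0.46, −0.07 and 0.08 over 4. The last U2AF value rests on U2AF1L5, and without it the median of the other 3 was −0.18. Genes of a family are not replicates, and the order of the families was not tested.

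**Figure D2:**
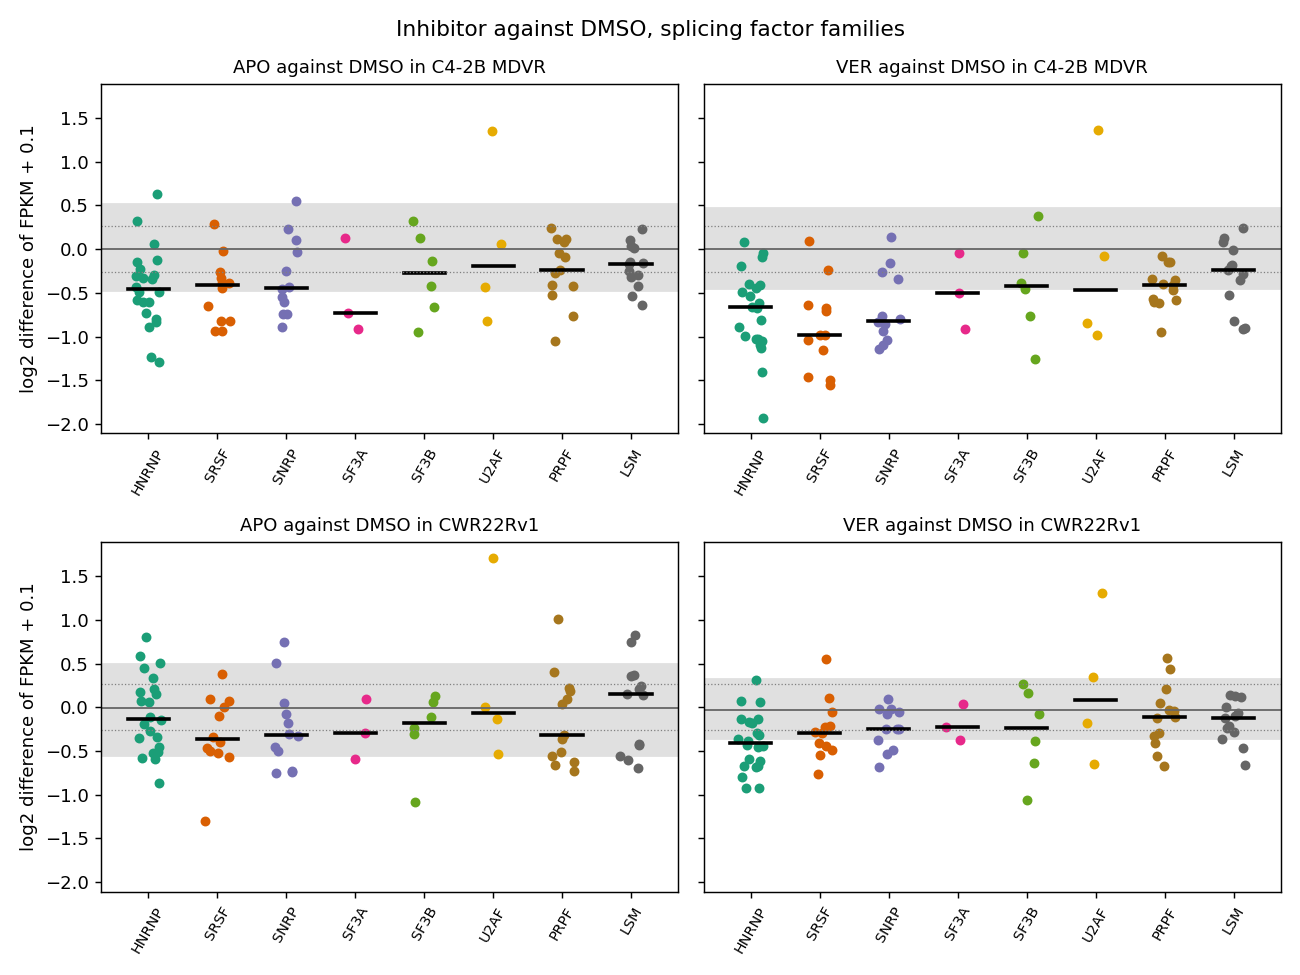
Each point is a member, placed by its family and its log2 difference from DMSO, with the family median as a bar, the middle 50% of protein-coding genes as the grey band, their median as the grey line and 1.2-fold as dotted lines. Most points lie below 0 in C4-2B MDVR with VER, where the SRSF median is −0.98, and the highest U2AF point is U2AF1L4 except with VER in CWR22Rv1, where it is U2AF1L5 (0.147 FPKM with VER, listed at 0 with DMSO).

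Promoter windows were available in the RefSeq table (GRCh38.p14) for 72 of the 85 members, as the 250 bases before the annotated start. The ETS core CCGGAA was found on either strand in 37.5% of member windows, against 22.7% of protein-coding genes tested and 14.8% of all windows in the table. The CCAAT box (CCAAT) was found in 43.1%, 34.9% and 33.0%, the E-box (CACGTG) in 9.72%, 8.53% and 6.49%, and the TATA box (TATAAA) in 8.33%, 6.23% and 11.1%. The CRE TGACGTCA was in 0 of the 72 windows (2.57% of protein-coding genes tested and 1.77% of all), and the stress-response C/EBP-ATF letters TGATGNAA were in 1 window (1.39%, against 1.59% and 3.19%). By family, the ETS core was most frequent in SF3A (3 of 3), SNRP (7 of 11) and SF3B (3 of 5) windows. The CCAAT box was most frequent in PRPF (6 of 9), HNRNP (13 of 20) and LSM (5 of 10) windows. The SF3A2, SF3A3, SF3B2 and SF3B4 windows, which hold an ETS core, lie wholly in annotated exons of their own gene. So do the HNRNPA2B1, HNRNPH3, PRPF31 and LSM5 windows, which hold a CCAAT box. Such exons cover 117 bases of the SF3B6 window and 244 of the SNRPE window, both with an ETS core.

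Changes of members with and without a motif are given as medians, with no test. With VER in C4-2B MDVR the median was −0.68 for the 27 members with an ETS core and −0.54 for the 45 without, and −0.52 and −0.66 for the 31 with and 41 without a CCAAT box. The gaps were wider for the rarer motifs, at −0.93 for the 6 members with a TATA box against −0.53 for the 66 without, and −0.81 for the 7 with an E-box against −0.58 for the 65 without. With VER in CWR22Rv1 the order turned for the ETS core (−0.25 with and −0.29 without) and for the CCAAT box (−0.29 and −0.25). It also turned there for the TATA box (−0.17 and −0.29). The E-box kept its order there (−0.43 and −0.25), but 6 of the 7 windows with an E-box belong to HNRNP genes. With APO in C4-2B MDVR, the ETS core had −0.33 with and −0.34 without, and the CCAAT box −0.34 and −0.33. The TATA box had −0.32 and −0.34, and the E-box −0.49 and −0.33. With APO in CWR22Rv1, the ETS core had −0.27 and −0.14, and the CCAAT box −0.11 and −0.29. The TATA box had −0.27 and −0.18, and the E-box −0.35 and −0.18. A match is a description of letters and does not show a bound factor. Exons of the gene's own annotated transcripts reach into 61 of the 72 windows and cover 14 of them wholly. Not all of this sequence therefore lies upstream of every start.

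The windows below hold at most 26 exonic bases, and show 3 members that were lower with VER in C4-2B MDVR (SRSF3, SRSF6, HNRNPAB), 2 that moved in opposite directions in the lines with APO (SRSF8, SF3B5) and 1 that was above DMSO throughout (LSM10). Capitals mark ETS core, CCAAT box, E-box and TATA box letters on either strand. The sequences are written 5′ to 3′ on the strand of the gene.
SRSF3: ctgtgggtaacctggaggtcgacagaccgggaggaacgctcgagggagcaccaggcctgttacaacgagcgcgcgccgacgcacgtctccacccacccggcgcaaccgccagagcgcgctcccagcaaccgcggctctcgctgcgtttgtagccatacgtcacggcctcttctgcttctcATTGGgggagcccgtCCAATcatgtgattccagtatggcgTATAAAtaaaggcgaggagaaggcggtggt
SRSF6: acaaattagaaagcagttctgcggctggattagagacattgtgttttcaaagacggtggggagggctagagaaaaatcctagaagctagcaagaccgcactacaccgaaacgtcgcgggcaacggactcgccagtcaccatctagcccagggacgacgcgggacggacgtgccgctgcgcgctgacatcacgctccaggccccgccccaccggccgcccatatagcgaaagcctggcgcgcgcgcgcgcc
HNRNPAB: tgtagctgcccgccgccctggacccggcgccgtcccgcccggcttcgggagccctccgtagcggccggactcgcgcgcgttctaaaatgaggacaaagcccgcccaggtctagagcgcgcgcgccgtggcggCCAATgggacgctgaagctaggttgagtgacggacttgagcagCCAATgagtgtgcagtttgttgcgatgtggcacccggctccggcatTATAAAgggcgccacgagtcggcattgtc
SRSF8: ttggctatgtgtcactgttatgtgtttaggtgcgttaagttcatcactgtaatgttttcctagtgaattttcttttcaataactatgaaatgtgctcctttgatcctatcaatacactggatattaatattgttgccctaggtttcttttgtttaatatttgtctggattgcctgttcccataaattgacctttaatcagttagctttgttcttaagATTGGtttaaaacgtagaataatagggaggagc
SF3B5: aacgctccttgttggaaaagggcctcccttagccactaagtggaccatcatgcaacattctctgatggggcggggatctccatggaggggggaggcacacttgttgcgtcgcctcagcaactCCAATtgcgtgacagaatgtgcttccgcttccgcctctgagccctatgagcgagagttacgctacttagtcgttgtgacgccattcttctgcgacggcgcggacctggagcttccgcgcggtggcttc
LSM10: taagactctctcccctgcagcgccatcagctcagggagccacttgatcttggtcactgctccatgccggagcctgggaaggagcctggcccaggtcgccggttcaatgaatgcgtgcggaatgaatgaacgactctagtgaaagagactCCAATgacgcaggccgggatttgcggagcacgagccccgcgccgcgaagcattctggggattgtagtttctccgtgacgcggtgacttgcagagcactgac

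SRSF3 (chr6:36594112-36594361, plus strand) and HNRNPAB (chr5:178204283-178204532, plus strand) each hold 2 CCAAT boxes and a TATA box. SRSF6 (chr20:43457646-43457895, plus strand) holds none of the 4 motifs. In C4-2B MDVR, SRSF3 read 214, 163 and 108 FPKM and SRSF6 read 79.9, 60.9 and 40.4 FPKM, with the same differences of −0.39 and −0.98. With APO in CWR22Rv1 they differed, at 0.01 for SRSF3 and −0.34 for SRSF6. SRSF8 (chr11:95066627-95066876, plus strand), SF3B5 (chr6:144095574-144095823, minus strand) and LSM10 (chr1:36397909-36398158, minus strand) each hold 1 CCAAT box. The SRSF8 window has 33.6% GC, against a median of 61.6% over the member windows.

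Of the 12 SR protein genes in C4-2B MDVR, 9 were lower and 1 higher with APO, against 34.5% and 36.2% of protein-coding genes. With VER, 10 were lower and 0 higher there, against 34.3% each. In CWR22Rv1, 7 were lower and 1 higher with each inhibitor, against 37.5% and 35.8% with APO and 31.7% and 28.5% with VER. The subset SRSF1 to SRSF7 was not among the planned family splits. All 7 of its genes were lower by 1.2-fold or more with each inhibitor in C4-2B MDVR, against 34.5% and 34.3%. In CWR22Rv1, 5 of the 7 were lower with APO, against 37.5%, and 4 with VER, against 31.7%. SRSF1, the prototype SR protein (chr17:58003360-58007346, minus strand, GRCh38, GENCODE 29), read 236, 123 and 83.5 FPKM with DMSO, APO and VER in C4-2B MDVR, and 185, 129 and 109 FPKM in CWR22Rv1. Its highest treated library lay below both DMSO libraries. The log2 differences were −0.94 and −1.50 in C4-2B MDVR, and −0.52 and −0.77 in CWR22Rv1.

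SRSF2, which binds exonic enhancers, differed between the lines in which inhibitor lowered it more. It read 287, 162 and 104 FPKM with DMSO, APO and VER in C4-2B MDVR, and 277, 112 and 204 FPKM in CWR22Rv1. In C4-2B MDVR the differences from DMSO were −0.83 with APO and −1.46 with VER, but in CWR22Rv1 they were −1.30 and −0.44. SRSF7 fell furthest of the family with VER in C4-2B MDVR, from 89.6 to 30.3 FPKM, a difference of −1.56. In CWR22Rv1 it went from 124 FPKM to 87.3 with APO and 102 with VER.

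SRSF9, the highest of the family by its mean level, stayed within 1.2-fold of DMSO in 3 of the 4 comparisons. It read 238, 234 and 201 FPKM in C4-2B MDVR and 264, 283 and 216 FPKM in CWR22Rv1, where VER gave −0.30. SRSF8, a relative of SRSF2, read 44.96, 28.6 and 48.0 FPKM in C4-2B MDVR and 12.1, 15.7 and 17.8 FPKM in CWR22Rv1. It was lower with APO in C4-2B MDVR (−0.65) and higher with APO in CWR22Rv1 (0.38). SRSF12 was near the floor, at most 1.29 FPKM in any library, and its fold changes rest on low values.

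**Figure D3:**
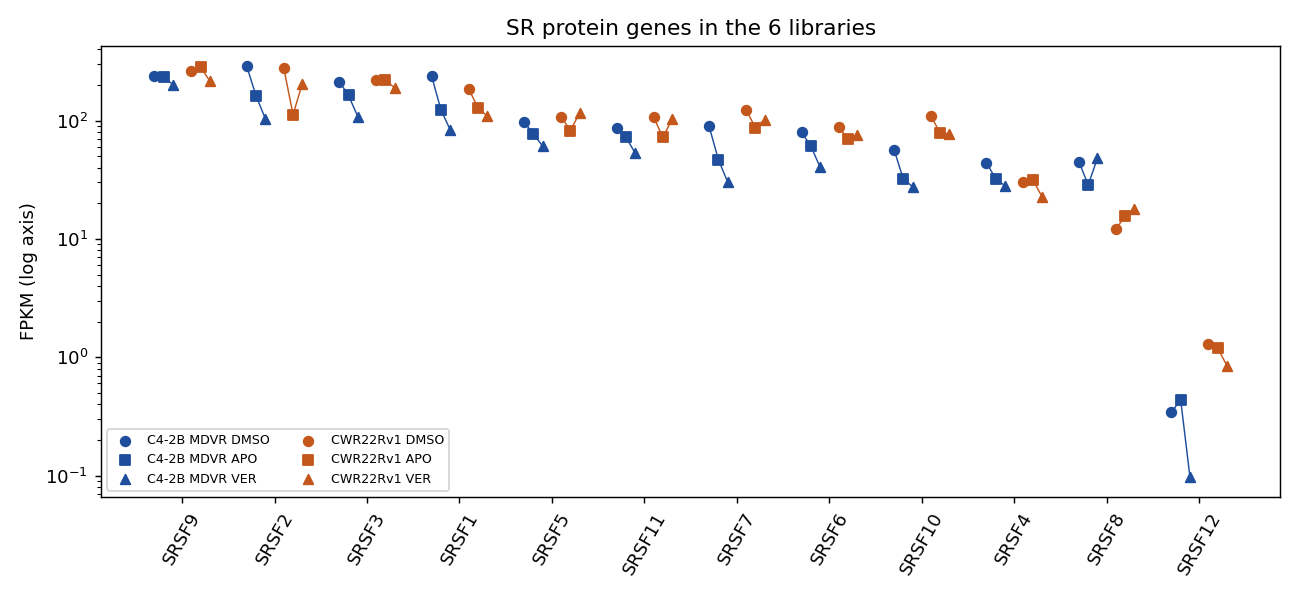
Points give the FPKM of each of the 12 SRSF genes in the 6 libraries on a log axis, ordered by mean level, with the 3 libraries of a line joined. In C4-2B MDVR the points of SRSF1 to SRSF7 step down from DMSO to APO to VER, as for SRSF1 from 236 to 83.5 FPKM, while in CWR22Rv1 the order of the treatments differs between genes and SRSF2 is lowest with APO at 112 FPKM.

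Among the hnRNP genes, 16 of the 22 tested were lower with APO in C4-2B MDVR and 18 with VER, against 34.5% and 34.3% of protein-coding genes. In CWR22Rv1 the counts were 9 and 15, against 37.5% and 31.7%, and the 9 with APO are near that share. HNRNPDL, a relative of HNRNPD (chr4:82422564-82430408, minus strand), had the lowest value of any member in C4-2B MDVR. It read 127, 51.9 and 33.3 FPKM there and 120.3, 79.6 and 89.5 FPKM in CWR22Rv1. In C4-2B MDVR the differences were −1.29 with APO and −1.93 with VER, and in CWR22Rv1 they were −0.60 and −0.43. HNRNPAB, a binder of nascent transcripts, read 91.8, 38.8 and 34.5 FPKM, then 200.2, 139 and 105 FPKM, and its C4-2B MDVR values lay below all those of CWR22Rv1.

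HNRNPM, which regulates exons in epithelial cells, moved by nearly the same step everywhere. It read 264, 142 and 129 FPKM in C4-2B MDVR and 213, 117 and 123 FPKM in CWR22Rv1, with differences of −0.90, −1.03, −0.87 and −0.80. HNRNPA2B1, which packages mRNA, read 503, 288 and 247 FPKM and then 637, 446 and 401 FPKM. HNRNPA1 stepped less, reading 848, 675 and 622 FPKM and then 692, 627 and 454 FPKM, so that its change with APO in CWR22Rv1 was within 1.2-fold (−0.14).

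In the other direction, 2 of the 22 were higher with APO in C4-2B MDVR and 5 in CWR22Rv1, against 36.2% and 35.8% of protein-coding genes. With VER the counts were 0 and 1, against 34.3% and 28.5%. HNRNPLL was higher with APO in both lines, as was HNRNPA1L2 (0.32 and 0.45, at most 3.17 FPKM). HNRNPLL is known for controlling CD45 exons in lymphocytes. HNRNPLL read 17.6, 27.2 and 18.6 FPKM in C4-2B MDVR and 14.5, 25.4 and 15.1 FPKM in CWR22Rv1. It was higher with APO, by 0.63 and 0.81, and within 1.2-fold of DMSO with VER, by 0.08 and 0.06. HNRNPC, which binds uridine tracts, was lower only with VER in C4-2B MDVR (320.0 to 173 FPKM) and higher with APO in CWR22Rv1 (486 to 692 FPKM). HNRNPC was singled out after its values were seen.

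Of the 12 snRNP genes in C4-2B MDVR, 7 were lower with APO and 10 with VER, against 34.5% and 34.3% of protein-coding genes. In CWR22Rv1 the counts were 7 and 4, against 37.5% and 31.7%, and the 4 with VER are near that share. The Sm ring genes, 8 in all, had medians of −0.45 and −0.85 in C4-2B MDVR and −0.48 and −0.25 in CWR22Rv1. SNRPD1 and SNRPF, subunits of the ring, were lower in all 4 comparisons. SNRPD1 read 28.1, 16.8 and 14.7 FPKM, then 27.4, 16.3 and 18.9 FPKM. SNRPF read 50.6, 27.2 and 22.95 FPKM, then 74.8, 45.2 and 53.2 FPKM.

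SNRPB and SNRPN encode closely related Sm proteins, and their values moved apart. SNRPB read 262, 220.2 and 127 FPKM in C4-2B MDVR and 289, 230.3 and 224 FPKM in CWR22Rv1. SNRPN read 105, 154 and 115 FPKM and then 54.2, 91.2 and 52.1 FPKM, higher with APO by 0.55 and 0.75. SNRPN overlaps SNURF on the same strand, and SNURF, at most 4.78 FPKM, was lower with APO in both lines. SNRPD2, the highest snRNP gene in CWR22Rv1, read 222, 260.1 and 185 FPKM in C4-2B MDVR and 330.1, 234 and 326 FPKM in CWR22Rv1.

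Among the U2 components, SF3B3 (chr16:70523788-70577670, plus strand) was lower everywhere, and the smallest of its 4 differences was larger than that of any other member. This scaffold of the SF3B complex read 121, 62.9 and 50.7 FPKM in C4-2B MDVR and 104, 48.8 and 49.7 FPKM in CWR22Rv1. The highest treated value, 62.9 FPKM, lay below both DMSO values. The differences were −0.95, −1.26, −1.09 and −1.06. The other SF3B genes did not share that step.

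SF3B1, the branch-point binding subunit and a frequent site of cancer mutations, read 72.3, 66.0 and 55.4 FPKM, then 76.4, 70.6 and 85.7 FPKM, and only VER in C4-2B MDVR took it past 1.2-fold (−0.38). SF3B5, a small subunit, was higher with APO in C4-2B MDVR (204 to 255 FPKM) and lower with APO in CWR22Rv1 (174 to 141 FPKM). SF3B6, which contacts the branch-point adenosine, stayed within 1.2-fold of DMSO except with VER in CWR22Rv1 (65.5 to 78.8 FPKM).

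In SF3A, which joins SF3B in the U2 snRNP, SF3A2 read 44.5, 23.6 and 23.5 FPKM and then 46.9, 31.2 and 40.2 FPKM. SF3A3 of the same complex stayed within 1.2-fold of DMSO throughout, at 52.6, 57.5 and 51.2 FPKM and then 28.8, 30.9 and 29.5 FPKM.

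The U2AF genes moved in opposite directions. U2AF2 (chr19:55654146-55674715, plus strand), the large subunit that binds the polypyrimidine tract, read 166, 93.8 and 92.1 FPKM in C4-2B MDVR and 133, 91.7 and 84.9 FPKM in CWR22Rv1. Its 4 treated values lay below both DMSO values, with differences of −0.82, −0.85, −0.53 and −0.64. U2AF1L4 (chr19:35742464-35745445, minus strand), a paralog of the small subunit, read 3.57, 9.27 and 9.32 FPKM and then 12.4, 40.9 and 15.8 FPKM. It was higher in all 4 comparisons, by 1.35 and 1.36 in C4-2B MDVR and by 1.71 and 0.34 in CWR22Rv1.

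U2AF1L4 overlaps PSENEN, a γ-secretase subunit gene on the opposite strand, by 332 bases. PSENEN read 48.0, 99.2 and 73.6 FPKM and then 98.7, 118 and 123 FPKM, so both genes were higher with inhibitor in C4-2B MDVR. Labels describe a strand-marking kit, but whether the authors counted by strand is not given in the sources used here. U2AF1, at 8.02, 5.89 and 4.01 FPKM and then 5.69, 5.17 and 5.01 FPKM, has a near-identical copy annotated as U2AF1L5, so its values are uncertain. U2AF1L5 was listed at 0 in the DMSO and APO libraries of CWR22Rv1 and passed the filter there only through VER (0.147 FPKM), so no fold is given.

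Of the 13 PRPF genes in C4-2B MDVR, 6 were lower with APO and 10 with VER, beside 34.5% and 34.3% of all protein-coding genes. In CWR22Rv1 the counts were 7 and 5, beside 37.5% and 31.7%, and the 5 with VER are near that share. PRPF8, the scaffold of the catalytic core, read 102, 60.1 and 68.3 FPKM and then 72.7, 43.8 and 49.5 FPKM. PRPF4 of the tri-snRNP read 27.5, 13.2 and 14.2 FPKM and then 19.9, 12.5 and 12.5 FPKM, the lowest value of the family in C4-2B MDVR at −1.05 with APO and −0.95 with VER. Both genes had larger falls with APO than with VER in C4-2B MDVR, unlike the median member.

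PRPF18, a factor of the second catalytic step, was low and rose with both inhibitors in CWR22Rv1, where it read 6.21, 12.6 and 9.21 FPKM, against 15.6, 18.4 and 14.7 FPKM in C4-2B MDVR. PRPF19, the ubiquitin ligase of the Prp19 complex, read 118, 100.2 and 92.3 FPKM and then 69.6, 74.4 and 52.6 FPKM. PRPF3 of the tri-snRNP was lower with VER in C4-2B MDVR (33.8 to 22.7 FPKM) and higher with VER in CWR22Rv1 (39.6 to 53.5 FPKM).

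Among the LSM genes, the ring genes LSM1 to LSM8, whose proteins hold U6 snRNA or decaying mRNA, had medians of −0.27 and −0.44 in C4-2B MDVR and −0.14 and −0.11 in CWR22Rv1. LSM2 was lower in all 4, reading 77.5, 49.5 and 41.6 FPKM and then 61.0, 41.4 and 47.4 FPKM. LSM7 read 174, 142 and 143 FPKM and then 255, 157 and 215 FPKM. LSM10, a subunit of the U7 snRNP that processes histone mRNA, was above DMSO in every comparison and read 66.4, 78.1 and 78.5 FPKM, then 23.9, 40.1 and 26.4 FPKM. Only APO in CWR22Rv1 took it past 1.2-fold (0.74), and the other 3 differences were 0.23, 0.24 and 0.14. LSM11, the other U7 subunit measured here, was at most 2.96 FPKM and had differences of −0.31, 0.08, −0.43 and −0.21.

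Over the 4 comparisons, 40 of the members tested were below DMSO in all and 3 were above DMSO in all. The 3 were U2AF1L4, LSM10 and HNRNPLL. APO and VER share the DMSO library of a line, so the 4 comparisons are not independent. The matching shares of all protein-coding genes were not computed, so neither count can be called rare or common. Ranked by the smallest of the 4 differences, the leading 10 lower members were SF3B3, HNRNPM, PRPF4, PRPF8, U2AF2, SNRPD1, HNRNPAB, SRSF1, HNRNPA2B1 and SNRPF. They come from 6 of the 8 families.

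**Figure D4:**
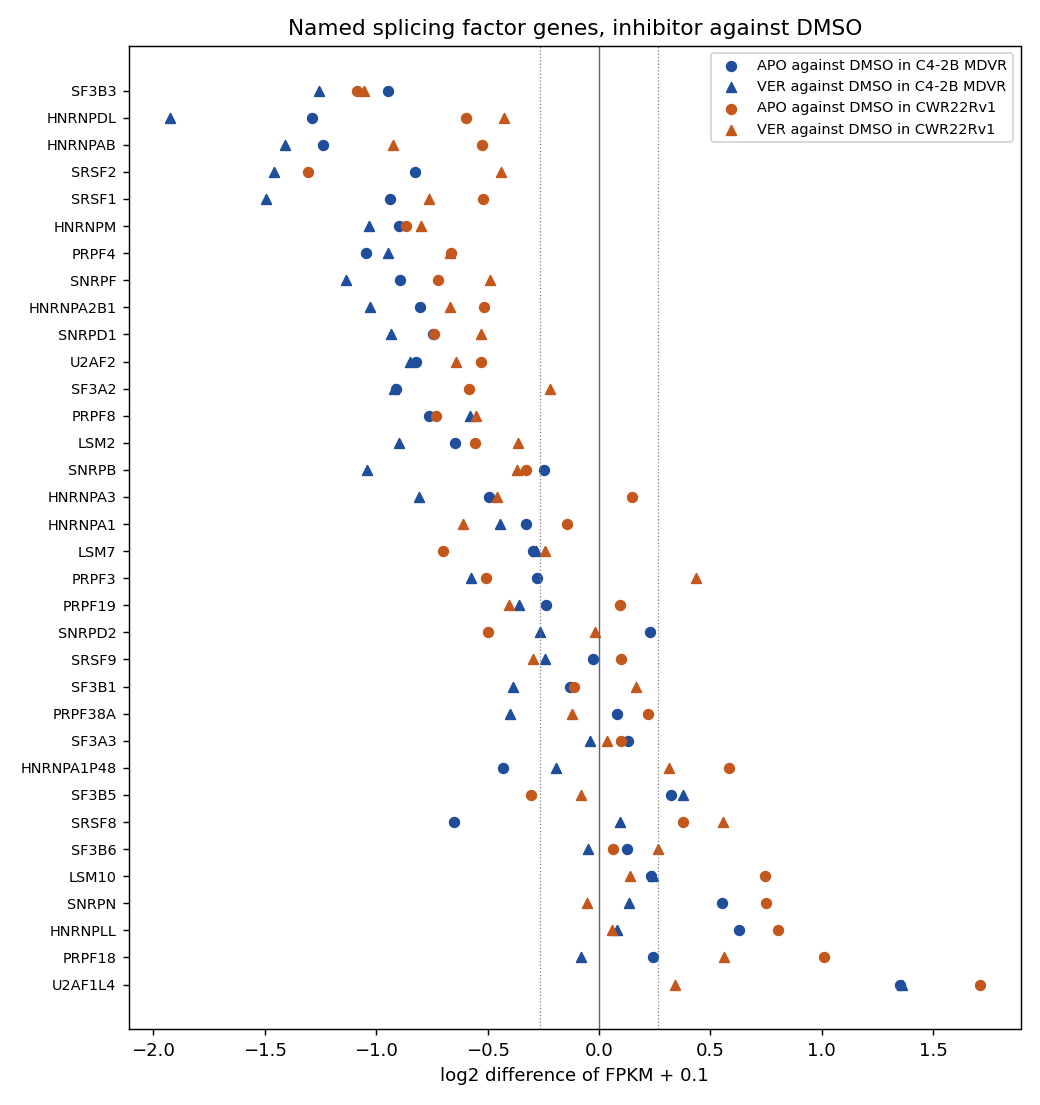
Each row is a named member and each symbol its log2 difference from DMSO (circles APO, triangles VER, blue C4-2B MDVR, orange CWR22Rv1), with 0 as the solid line and 1.2-fold as dotted lines. SF3B3 is the row whose 4 symbols all lie near −1 (−0.95 to −1.26), and U2AF1L4 is the row furthest to the right (0.34 to 1.71).

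Compared directly, VER gave lower values than APO in C4-2B MDVR. There, 37 members (43.5%) were lower with VER than with APO by 1.2-fold or more, against 30% of protein-coding genes, and 2 were higher, against 25.9%. The median was −0.22. In CWR22Rv1, 34 members (40%) were lower with VER against 35.7%, and 15 (17.6%) were higher against 33.9%, with a median of −0.08. The inhibitors were given at the same dose and time, and this comparison does not use the DMSO libraries.

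The 12 SR protein genes had medians of −0.50 for VER against APO in C4-2B MDVR and 0.05 in CWR22Rv1. In C4-2B MDVR, 8 were lower by 1.2-fold and 1, SRSF8, was higher, against 30% and 25.9% of protein-coding genes. In CWR22Rv1, 3 were lower and 3 higher, against 35.7% and 33.9%, neither above the share. For SRSF1 to SRSF7 alone the medians were −0.59 and 0.11. Of these 7, 6 were lower in C4-2B MDVR, and 1 was lower and 2 higher in CWR22Rv1, against the same shares. The HNRNP genes were lower with VER than with APO in both lines, with medians of −0.27 and −0.39. U2AF1L4 read alike with both inhibitors in C4-2B MDVR (0.01) but lower with VER in CWR22Rv1 (−1.37). Without replicates these differences between the inhibitors were not tested.

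Between the lines, the members' changes with the same inhibitor ran in parallel. Across the 85 members, Pearson's r between the lines was 0.70 with APO and 0.59 with VER, and Spearman's rho was 0.62 and 0.64, U2AF1L5 included. Over all 13707 protein-coding genes tested in both lines, r was 0.50 and 0.43. These are descriptions across genes, which are not independent, and all genes of a line share the same libraries. Past 1.2-fold, 4 member changes had opposite signs in the lines: PRPF3 with VER, and SRSF8, SF3B5 and HNRNPA1P48 with APO. The share of all protein-coding genes with such opposite changes was not computed, so this count cannot be called rare or common.

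**Figure D5:**
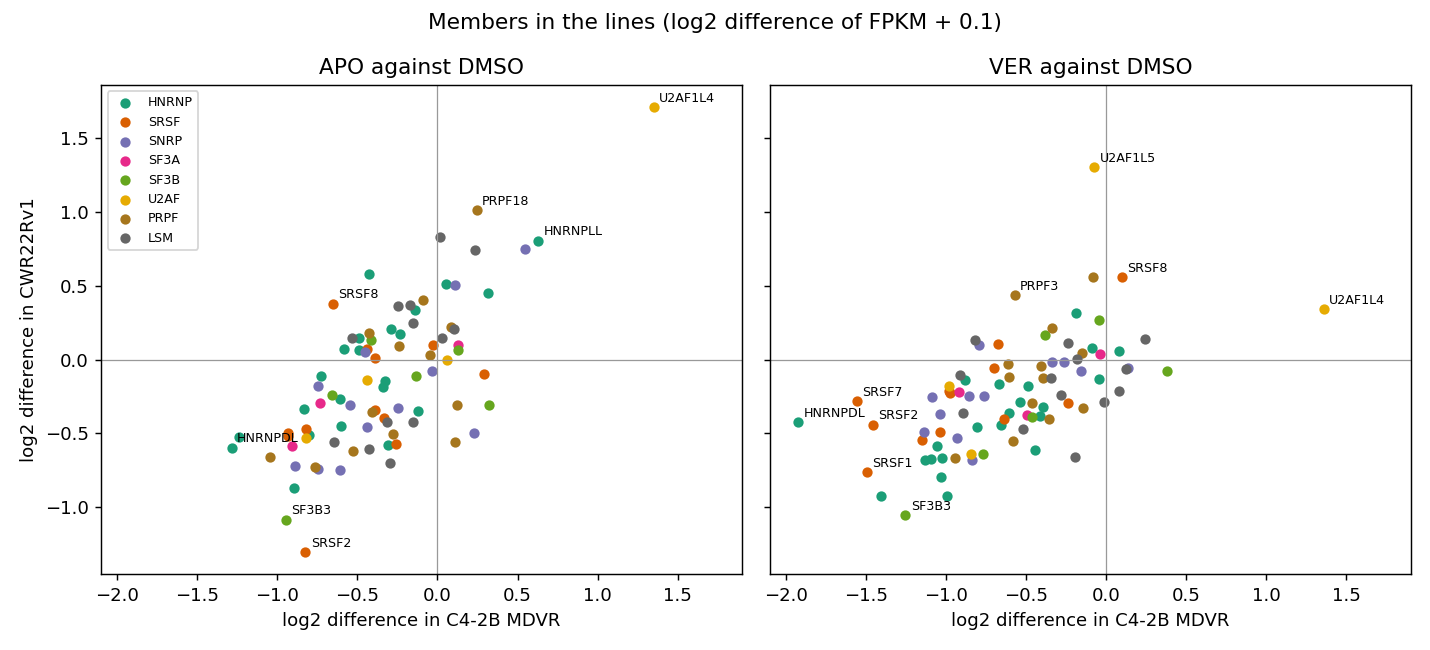
Each point is a member, with its log2 difference from DMSO in C4-2B MDVR on the x axis and in CWR22Rv1 on the y axis, coloured by family, for APO (left) and VER (right). Most points fall in the lower left corner, SF3B3 and SRSF2 are lowest on the y axis with APO (−1.09 and −1.30), and the U2AF1L5 point with VER rests on 0.147 FPKM.

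Some members differed between the DMSO libraries of the lines. C4-2B MDVR was kept with enzalutamide and CWR22Rv1 was not, so line and enzalutamide cannot be told apart here. With DMSO, 23 members (27.1%) were lower in C4-2B MDVR than in CWR22Rv1 against 39.7% of protein-coding genes, and 33 (38.8%) were higher against 39.9%. HNRNPA3, an mRNA-trafficking hnRNP, showed the largest difference at 183 against 38.5 FPKM (2.24). SRSF8 was 44.96 against 12.1 FPKM (1.89), PRPF38A of the pre-catalytic spliceosome 55.8 against 19.2 FPKM (1.53), LSM10 66.4 against 23.9 FPKM (1.47), and U2AF1L4 3.57 against 12.4 FPKM (−1.77). The median member differed by 0.11. With mitochondrial genes left out of the scaling, 33 were lower and 23 higher, so the order of these counts depends on the scaling.

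Splicing genes outside the rule were described with lists of 98 genes in 7 groups. In C4-2B MDVR, 53 of 96 tested were lower with APO and 61 with VER, and 10 and 6 were higher. In CWR22Rv1, 33 and 44 of 98 were lower and 31 and 10 higher. The shares over all protein-coding genes were 34.5%, 34.3%, 37.5% and 31.7% lower in the same order, so the 33 lower with APO in CWR22Rv1 lie below the share of all genes. The shares higher were 36.2%, 34.3%, 35.8% and 28.5%, and the 31 higher with APO in CWR22Rv1 are near that share. SFPQ, a paraspeckle protein, read 170.0, 81.4 and 79.3 FPKM in C4-2B MDVR (DMSO, APO, VER) and 203, 84.7 and 133 FPKM in CWR22Rv1. GEMIN4 of the SMN complex, which loads Sm rings on snRNAs, was the lowest of its group, from 38.7 to 13.5 and 15.8 FPKM and from 22.1 to 7.07 and 10.5 FPKM.

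The Prp19 complex list went the other way in part, with medians of 0.13 and −0.12 in C4-2B MDVR and 0.44 and 0.10 in CWR22Rv1. BUD31 of that list rose from 66.7 to 124 and 107 FPKM and from 80.7 to 209 and 132 FPKM. The epithelial splicing regulators also differed from each other: ESRP1 rose from 37.5 to 102 and 76.0 FPKM and from 45.4 to 133 and 70.2 FPKM, whereas ESRP2 fell from 28.8 to 13.5 and 18.1 FPKM and from 38.3 to 17.8 and 24.7 FPKM. Of the kinases that phosphorylate SR proteins, SRPK1 fell in all 4 comparisons (33.2 to 18.7 and 21.8 FPKM, 34.7 to 19.8 and 23.4 FPKM), and SRPK2 rose in 3 of them.

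The remaining lists had medians as follows for APO and VER in C4-2B MDVR and then in CWR22Rv1. The snRNP proteins outside the rule had −0.30, −0.45, −0.22 and −0.21. The snRNP assembly genes had −0.29, −0.27, −0.21 and −0.20, the helicases −0.19, −0.37, −0.21 and −0.31, and the exon junction complex −0.24, −0.66, 0.19 and −0.25. The SR protein kinases had 0.06, −0.15, 0.38 and 0.09, and the other regulators −0.59, −0.69, −0.13 and −0.29.

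The annotation adds a feature the rule did not use. A transcript marked for nonsense-mediated decay is annotated for 12 of 12 SRSF and 4 of 4 U2AF genes. Inclusion of a poison exon can give such a form, but these counts do not single out such exons. Of the 85 members tested, 46 (54.1%) have a marked transcript, against 40.1% of protein-coding genes tested. The share was 47.7% where the mean of the protein-coding gene reached 10 FPKM. Gene FPKM sum all isoforms, so a shift between productive and decay transcripts cannot be read from these values. Counting can also be shared with other genes: 9 members overlap another protein-coding gene on the same strand and 24 on the opposite strand. Pseudogenes named after the families numbered 123 for HNRNP and 54 for SNRP, and the HNRNP ones held 1.42% to 1.89% of that family's summed FPKM.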

How the data were processed

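RNA-seq was done on 6 libraries. The authors prepared poly-adenylated libraries and deposited FPKM for each gene as Cuffnorm scaled them between libraries. The submitters' processing notes name HISAT, Cufflinks and GRCh38, and their versions are not given in the sources used here. The labels name a KAPA stranded kit, while the study's methods name a TruSeq kit. The study's methods give a single approximate read number for all samples and no total for each library. The depth of each library was therefore only estimated relative to the others, from values of 0.001 to 0.05 FPKM, and neither intervals nor floors are given.

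Of 60658 identifiers, 57047 were matched to GENCODE 29. FPKM are not counts, so differences of log2(FPKM + 0.1) were computed with pandas 2.3.3 and numpy 2.4.6 in Python 3.11.15 for genes above 0.1 FPKM in at least 1 library of the line. Counts of members past 1.2-fold stand beside those of all protein-coding genes tested. The functions were tested on simulated data. Motifs were searched in RefSeq promoter windows.

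The members and lists were chosen with earlier results of these data known. Named members were the 10 lower and up to 5 higher in all 4 comparisons by their smallest difference (mean of at least 1 FPKM), the highest, the most lowered and the most raised of each family, HNRNPA1, SRSF1, U2AF2, SNRPB, SNRPN and SF3B1, the 5 that differed most between the DMSO libraries, and those past 1.2-fold in opposite directions in the lines. Members named beyond this rule, such as SRSF3, SRSF6, SRSF7, HNRNPC, HNRNPA1L2, LSM11 and U2AF1, were chosen after their values were seen, as were the genes named from the other lists. The subset SRSF1 to SRSF7 was not part of this rule or of the planned family splits. The alternatives were other pseudocounts, filters, scalings, thresholds and backgrounds.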

Additional observations from a re-analysis of the deposited data

Results flagged for a closer look

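With the same inhibitor, 4 members passed 1.2-fold in opposite directions in the lines, each from 1 library per condition, and the difference between the lines was not tested. No share of all protein-coding genes that did so was computed. PRPF3 with VER changed by −0.57 in C4-2B MDVR and by 0.43 in CWR22Rv1. SRSF8 with APO changed by −0.65 in C4-2B MDVR and by 0.38 in CWR22Rv1. SF3B5 with APO changed by 0.32 in C4-2B MDVR and by −0.31 in CWR22Rv1. HNRNPA1P48 with APO changed by −0.43 in C4-2B MDVR and by 0.58 in CWR22Rv1, from a mean of 2.15 FPKM. HNRNPA1P48 carries a pseudogene name but is annotated as protein-coding in GENCODE 29.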

How the results depend on the processing

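No paired analysis was possible because each condition has 1 library and no result comes from a test, and for the same reason no library was left out. No median and no named member changed direction past the threshold under any alternative run. Counts were compared by size only. Those between the DMSO libraries turned from 23 lower and 33 higher to 33 lower and 23 higher without mitochondrial genes.

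Rescaling to the same sum (TPM) moved the median protein-coding gene by −0.12 with APO in C4-2B MDVR, and rescaling without mitochondrial genes moved it by −0.14 there and by −0.15 with APO in CWR22Rv1. The members lower and higher with APO became 61 and 3 in C4-2B MDVR under both scalings, beside 42.8% and 43.5% of protein-coding genes lower. With APO in CWR22Rv1 they became 30 and 23 with TPM, beside 32.9% lower, and 47 and 10 without mitochondrial genes, beside 44.8%. With VER in CWR22Rv1 they became 48 and 5 under both, beside 36.3% and 36.5%. Without mitochondrial genes, 33 members were lower and 23 higher in C4-2B MDVR than in CWR22Rv1 with DMSO, beside 44.5% of protein-coding genes lower.

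With TPM, the U2AF, PRPF and LSM medians with APO in C4-2B MDVR passed 1.2-fold at −0.32, −0.39 and −0.32, and without mitochondrial genes at −0.34, −0.40 and −0.33. With APO in CWR22Rv1, TPM took the SRSF, SNRP, SF3A and PRPF medians to −0.25, −0.20, −0.18 and −0.20, within 1.2-fold, and the LSM median to 0.26, past it. Without mitochondrial genes the HNRNP and SF3B medians became −0.28 and −0.33 and that of all members −0.34. With VER in CWR22Rv1, the medians of all members, SNRP, SF3A and SF3B became −0.31, −0.31, −0.29 and −0.30 under both scalings. A median ratio of 1 took the SRSF median with VER in CWR22Rv1 to −0.24, and a filter of 1 FPKM moved the U2AF median in C4-2B MDVR with APO to −0.44 over 3 genes.

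With a pseudocount of 1, 4 members were higher with VER in CWR22Rv1. For members whose mean reached 10 FPKM, 3 in C4-2B MDVR were higher with APO and 1 with VER, and 4 in CWR22Rv1 with VER, where the median became −0.27. At 1.5-fold, 26 were lower and 2 higher with APO in C4-2B MDVR, 1 higher with VER there, 13 lower and 6 higher with APO in CWR22Rv1, 15 lower and 1 higher with VER there, and 11 lower and 16 higher in C4-2B MDVR than in CWR22Rv1 with DMSO. At 2-fold these counts were 3 and 1 with APO and 16 and 1 with VER in C4-2B MDVR. In CWR22Rv1 they were 2 and 2 with APO and 1 and 1 with VER, and between the DMSO libraries 4 and 8. Of protein-coding genes, 21.2%, 24% and 14.2% were lower at 1.5-fold, and 10.2%, 9.74%, 12.6% and 5.16% at 2-fold, in the orders given. No share of all protein-coding genes is given for the higher counts under the alternatives, or between the DMSO libraries at 1.5-fold and 2-fold. Those counts cannot be called rare or common. Of the values of named members under the alternatives, 14 dropped within 1.2-fold and 14 passed it, none with a change of sign.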
